A study of Mus musculus with 10 samples.

Results

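The genes described here encode the SETD1 histone methyltransferases and the subunits they work with (*Setd1b*, *Setd1a*, *Cxxc1*, *Wdr82*, *Wdr5*, *Rbbp5*, *Ash2l* and *Dpy30*), and a subunit of the MLL1 and MLL2 complexes (*Men1*). Their members are all 5 kb windows that the deposited H3K4me3 table lists under one of these 9 genes, 45 of the 544879 windows in the table. *Setd1b*, *Setd1a*, *Wdr82* and *Wdr5* had 5 windows each, *Rbbp5* and *Ash2l* had 7, *Dpy30* had 6, *Men1* had 3 and *Cxxc1* had 2. Of these windows, 7 held the annotated start of their own gene and 38 were internal. The table gives each window a single gene name, and the windows with the starts of *Setd1b* and *Setd1a* are listed under the neighbouring genes *AI480526* and *Orai3*. Those windows are therefore outside the 45 and are described beside them as gene start windows.

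H3K4me3 was measured by ULI-nChIP-seq (native chromatin immunoprecipitation from very few cells) in pools of germinal vesicle (GV) oocytes from C57BL6 females at 21 days of age (C57BL/6OlaHsd background by the study's methods). Oocytes of the cKO group (N = 3, replicates 1, 3 and 4) were *Setd1b* floxed/floxed and *Gdf9*-Cre positive, and those of the WT group (N = 3, replicates 1, 2 and 4) were *Setd1b* floxed/floxed and *Gdf9*-Cre negative, so all mice carried floxed alleles. Input chromatin was sequenced for replicates 1 and 4 of each genotype. Cre under the *Gdf9* promoter deletes in oocytes from early follicle growth onwards, so the gene is intact before then. The study's methods also allow WT females with Cre and a heterozygous deletion, whereas the labels name Cre-negative females, and the part of *Setd1b* that is floxed is not given in the sources used here.

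H3K4me3 is the trimethyl mark on lysine 4 of histone H3 that sits over the promoters of most active genes and over many CpG-rich promoters that are not transcribed. It is deposited by COMPASS-type complexes, each built on a SET-domain enzyme of the SETD1 or MLL family. WDR5, RBBP5, ASH2L and DPY30 form the core that all these enzymes need for full activity. CXXC1 (CFP1) and WDR82 belong to the SETD1 complexes: the CxxC finger of CXXC1 binds unmethylated CpG and WDR82 binds the phosphorylated tail of RNA polymerase II. Menin, the product of *Men1*, belongs to the MLL1 and MLL2 complexes instead. In growing oocytes H3K4me3 also spreads over broad untranscribed regions, largely through MLL2.

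Because CXXC1 reads CpG, the CpG content of the promoters is shown first. RefSeq promoters (GRCm38.p6) were matched for 6 of the 9 genes, and the 250 bases before the transcription start are printed 5′ to 3′ in the direction of the gene, with each CG in capitals (CG reads the same on both strands). The promoter of *Wdr82* (chr9:106170679-106170928, + strand), whose gene start window was called lower in the cKO, is set beside that of *Rbbp5* (chr1:132477117-132477366, + strand), whose start window was higher in WT and was not called, that of *Men1* (chr19:6334729-6334978, + strand), with the highest start window in WT, and a pair of starts of *Dpy30*, the outer one (chr17:74323945-74324194, - strand) and an inner one (chr17:74316434-74316683, - strand).
Wdr82: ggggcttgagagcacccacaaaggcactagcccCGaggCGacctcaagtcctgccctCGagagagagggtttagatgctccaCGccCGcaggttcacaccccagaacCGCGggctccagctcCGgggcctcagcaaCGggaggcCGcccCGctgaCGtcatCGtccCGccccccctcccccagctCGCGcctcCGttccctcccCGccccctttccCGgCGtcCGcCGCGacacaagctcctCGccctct
Rbbp5: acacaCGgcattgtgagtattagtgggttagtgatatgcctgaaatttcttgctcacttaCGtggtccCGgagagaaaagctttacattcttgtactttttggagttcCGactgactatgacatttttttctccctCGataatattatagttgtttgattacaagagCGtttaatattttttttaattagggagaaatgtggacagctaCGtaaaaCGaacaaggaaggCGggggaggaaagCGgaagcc
Men1: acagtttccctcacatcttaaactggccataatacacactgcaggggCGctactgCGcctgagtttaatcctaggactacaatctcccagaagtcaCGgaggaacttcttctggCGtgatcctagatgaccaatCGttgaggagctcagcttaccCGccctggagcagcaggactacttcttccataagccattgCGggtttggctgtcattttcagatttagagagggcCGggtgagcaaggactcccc
Dpy30 outer start: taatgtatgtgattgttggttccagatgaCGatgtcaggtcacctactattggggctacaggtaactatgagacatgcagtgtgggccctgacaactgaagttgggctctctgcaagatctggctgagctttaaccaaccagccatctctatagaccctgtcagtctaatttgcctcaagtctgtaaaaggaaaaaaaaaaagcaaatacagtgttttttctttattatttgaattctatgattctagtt
Dpy30 inner start: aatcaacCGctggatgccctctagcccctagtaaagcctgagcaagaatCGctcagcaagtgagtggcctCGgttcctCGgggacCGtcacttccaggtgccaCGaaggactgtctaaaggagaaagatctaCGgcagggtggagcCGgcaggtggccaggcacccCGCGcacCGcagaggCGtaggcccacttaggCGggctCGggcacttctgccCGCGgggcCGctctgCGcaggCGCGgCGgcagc
These 250 bases held 24 CG in *Wdr82*, 10 in *Rbbp5*, 8 in *Men1*, 1 at the outer start of *Dpy30*, where 1 of 6 transcripts starts, and 21 at this inner start (28 and 34 in the other inner entries). Of the matched promoters not printed, that of *Setd1a*, whose start window was not called, held 25 and that of *Wdr5* held 12. Over all 32851 promoter entries the median was 6 CG and 92.1% held at least 1. At least as many as in *Wdr82* were found in 12.0% of entries, and at least as many as at the inner *Dpy30* start in 16.3%. Apart from the outer start of *Dpy30*, all matched entries were above this median.

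Values are the deposited enrichment-normalized RPKM, read densities that the authors scaled between libraries, so levels can be compared between windows of equal length. The 6 H3K4me3 libraries held between 10856015 and 32775874 reads in windows. A window without reads had a value between -1.02 and 0.810 depending on the library, which sets the floor of each library. Groups were compared by limma over all windows, and a window was called at a Benjamini-Hochberg adjusted p under 0.05. Gene start windows of 12 oocyte marker genes summed to 68.9 to 76.4 in WT and 60.6 to 62.7 in cKO libraries, with 9 of 12 means lower in the cKO, and those of 10 granulosa cell genes summed to 31.2 to 32.6 in WT and 41.9 to 44.1 in cKO libraries, with 10 of 10 means higher. In WT, 11 of 12 oocyte and 4 of 10 granulosa cell genes stood above the median start window of protein-coding genes (3.72), and in cKO 9 and 5 did (median 4.04). The part of these marker differences in the results below was not tested.

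Of the 45 member windows, 2 were called in the limma fit without a trend, both lower in the cKO: the first internal window of *Setd1b* and the gene start window of *Wdr82*. Over all windows 1.02% were called, 0.454% as lower and 0.563% as higher. In this fit of all libraries without a trend no member window was called higher, where 4 had an unadjusted p under 0.05 in that direction and 6 in the other. edgeR on recovered reads called 0 higher, while limma with an intensity trend or without cKO replicate 1 called 1, in *Dpy30*. Among gene start windows, 2 of 9 were called lower (*Setd1b* and *Wdr82*), where 0.75% of the 20269 windows with the start of a protein-coding gene were called lower and 1.18% higher. The groups did not overlap in 4 member windows with the cKO lower and in 4 with the cKO higher, shares close to those over all windows (9.95% and 9.88%). The count of called member windows moved with the model. With an intensity trend in limma it was 3 (3.58% of all windows called), with edgeR 1 (2.29% of the windows tested), without cKO replicate 1 it was 4 (3.3% called), and with a replicate block 4 (6.14% called). Without cKO replicate 3 it was 1 (0.323% called). It was 0 on both log2 scales, after quantile normalization and without WT replicate 1, 2 or 4 or cKO replicate 4, settings in which at most 1 window of the whole table was called. With the trend, the first internal window of *Setd1b* and a window of *Ash2l* were called lower and a window of *Dpy30* higher. The *Wdr82* start window was not called there (adjusted p = 0.0672, limma). The study reported a larger share of windows as changed than the fit without a trend called, and a share close to that of the trend fit. Its methods do not say whether a trend was used. In the plot of all differences, red marks the windows called without a trend.

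**Figure D1:**
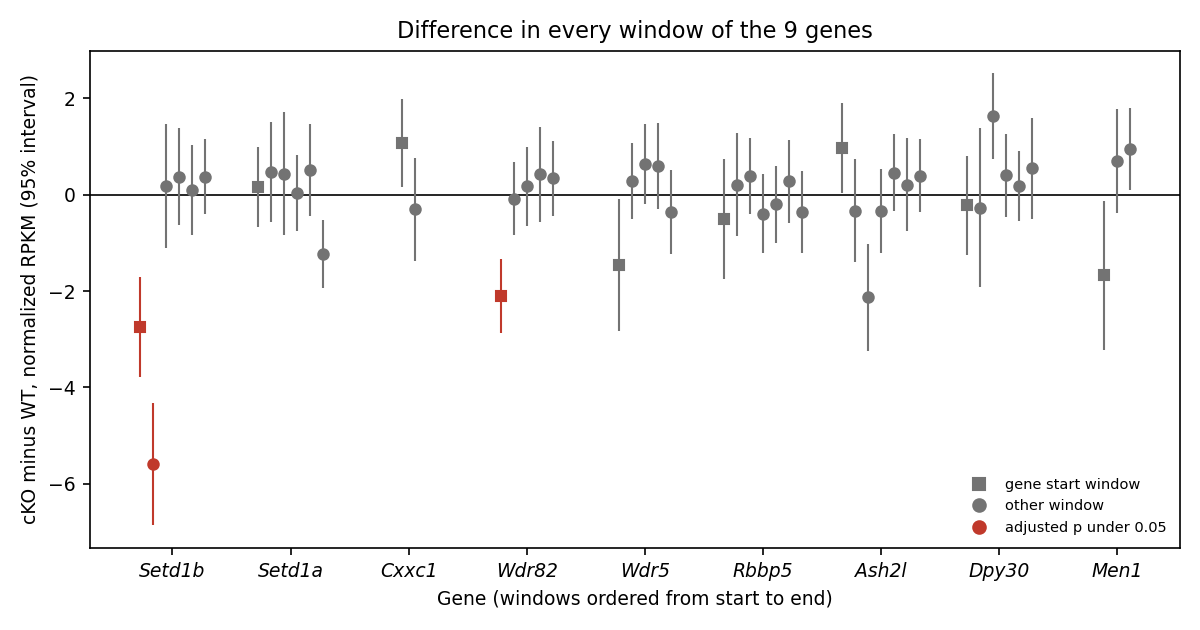
Difference in H3K4me3 (cKO minus WT mean, normalized RPKM, with 95% interval from limma) for every window of the 9 genes, ordered from gene start to gene end; squares are gene start windows, circles other windows, and red marks an adjusted p under 0.05. The first internal window of *Setd1b* lies lowest at -5.59, and the intervals of most internal windows include 0.

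*Setd1b*, the gene deleted in these oocytes, lost H3K4me3 around its start. Its annotated start at position 123142193 of chromosome 5 lies in chr5:123140001-123145000, a window with 240 CpG that it shares with the start of *AI480526*. In that window the WT libraries had 7.56, 7.65 and 6.11 normalized RPKM and the cKO libraries 4.50, 4.66 and 3.93. All cKO values lay below all WT values, and the difference was -2.74 (SE 0.465, adjusted p = 0.0332, limma). The next window, chr5:123145001-123150000, is the first internal one, with 2548 exon bases of *Setd1b* and 108 CpG, and it also overlaps *Gm26745*. Its values were 8.34, 9.69 and 7.37 in WT and 2.17, 3.21 and 3.25 in cKO libraries. This was the largest difference among the member windows, -5.59 (SE 0.571, 95% interval -6.86 to -4.32, adjusted p = 0.0124, limma). In reads, the same window held 144, 100 and 236 in WT and 25, 32 and 82 in cKO libraries, which is 11.0, 9.21 and 7.20 reads per 1000000 in WT and 1.96, 2.69 and 2.82 in cKO.

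The window upstream of the start, chr5:123135001-123140000, was also called lower, from 9.10 in WT to 6.07 in cKO (difference -3.03, adjusted p = 0.0415, limma); it is listed under *AI480526* and holds the start of *4932422M17Rik*. The 3 windows formed an uninterrupted run of 15 kb in which the mean was 8.23 ± 0.984 (SD, n = 3) in WT and 4.44 ± 0.457 (SD, n = 3) in cKO. Over the whole table the called losses formed 2211 such runs, of which 40 were at least as long and the longest had 5 windows. The run ended within the gene, where the other 4 internal windows of *Setd1b* were low in WT too (means from 1.11 to 2.17). They had values between 0.602 and 3.61 in all libraries, differences between 0.10 and 0.38 and adjusted p between 0.588 and 0.919 (limma). On the other side of the run, chr5:123130001-123135000 had means of 4.96 in WT and 3.88 in cKO (difference -1.08, adjusted p = 0.285, limma). Beyond the end of the gene, a pair of windows listed under *Hpd* had WT means of 7.11 and 6.14 and cKO means of 6.65 and 6.79, with adjusted p of 0.602 and 0.557 (limma).

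The loss at *Setd1b* was present in the libraries of replicate 1 and of replicate 4 taken alone. The first internal window was lower by 6.17 in cKO replicate 1 than in WT replicate 1 and by 4.12 in cKO replicate 4 than in WT replicate 4, and the gene start window by 3.06 and 2.19. Relative to the input of the same replicate, the first internal window stood at 4.15 and 4.90 in WT replicates 1 and 4 and at 1.03 and 1.38 in cKO replicates 1 and 4. The other internal windows of *Setd1b* stood between 0.158 and 1.03 in cKO replicate 1 and between 0.349 and 0.998 in cKO replicate 4. A value near 1 was thus not the lowest level of this measure. In edgeR the first internal window remained called, with a log2 fold change of -1.96 (adjusted p = 0.0263), while the gene start window was not (log2 fold change -0.97, adjusted p = 0.446). The limma call of the first internal window was lost without WT replicate 1, 2 or 4 or cKO replicate 4 (adjusted p between 0.0516 and 0.0872) on log2 scales (0.0804 and 0.437) and after quantile normalization (0.0689), and that of the gene start window was lost in the same settings and without cKO replicate 3.

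Input coverage was read over the 6 windows of *Setd1b*, gene start included. The 2 WT inputs held 254 and 279 reads and the 2 cKO inputs 274 and 329, or a mean signal per window of 2.09 and 1.79 against 2.11 and 2.13 (reads scaled to library size), so that both cKO inputs lay above both WT inputs on the scaled measure. With 2 libraries per group no test was made, and a deletion shorter than a window would change these values little. Across the 9 genes, single member windows held between 20 and 85 input reads.

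**Figure D2:**
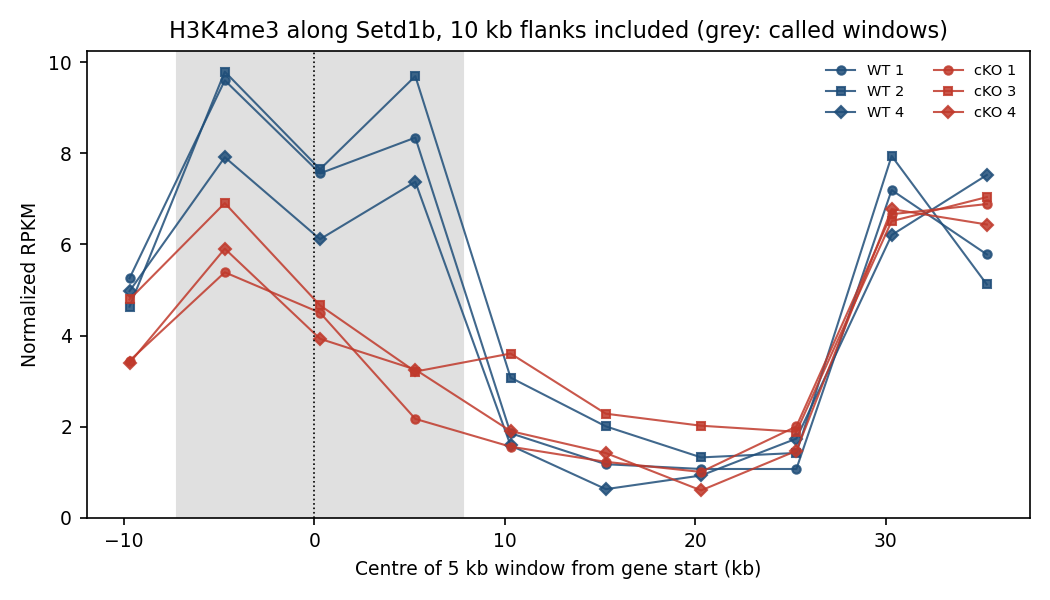
H3K4me3 (normalized RPKM) in each 5 kb window along *Setd1b* and 10 kb to either side, by the distance of the window centre from the gene start in kb; each line is a library (WT blue, cKO red), the dotted line is the gene start and grey marks called windows. The 3 grey windows separate all WT from all cKO libraries, and the libraries come together again downstream.

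By the distance of the start window over the 6 libraries, the 5 windows most like that of *Setd1b* among 20268 held the starts of *Mbd3l2* (distance 0.68), *2210016L21Rik* (0.941), *Ppp1r15b* (1.12), *Rab3gap1* (1.14) and *Cox4i1*, *Emc8* and *Gm27021* (1.18, a shared window). Their WT means lay between 6.59 and 7.35 and their cKO means between 4.00 and 4.56. These levels follow from how the windows were chosen.

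*Setd1a* encodes the other SETD1 enzyme. Its start window, chr7:127775001-127780000 with 194 CpG, had 5.10, 4.73 and 4.38 in WT and 4.50, 5.32 and 4.85 in cKO libraries. The groups overlapped, and the difference was 0.15 with a 95% interval from -0.68 to 0.98 (adjusted p = 0.854, limma), an interval that leaves out a loss as large as that at the *Setd1b* start. Its internal windows had differences between -1.24 and 0.51. The lowest was the last, chr7:127800001-127805000, with 122 exon bases of *Setd1a*, where the starts of *Hsd3b7* and *9430064I24Rik* also lie. It read 3.48, 3.56 and 3.63 in WT and 2.28, 2.29 and 2.39 in cKO libraries. The groups were narrow and did not overlap, but the difference of -1.24 (SE 0.318) did not pass the test (adjusted p = 0.0964, limma). The difference between the start windows of *Setd1b* and *Setd1a* was not tested as such.

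*Cxxc1* encodes the CpG-binding subunit that guides SETD1 complexes to unmethylated CpG islands. Its start window, chr18:74215001-74220000 with 204 CpG, had the lowest WT level of the 9 genes despite this CpG content, with 3.16, 3.17 and 3.09 in WT and 3.67, 5.06 and 3.93 in cKO libraries. The cKO values lay above the WT values, but the difference of 1.08 (SE 0.414, 95% interval 0.16 to 2.00) did not pass the test (adjusted p = 0.252, limma). The other window of *Cxxc1* had a difference of -0.31 (adjusted p = 0.763, limma).

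*Wdr82* encodes the subunit that links SETD1 complexes to RNA polymerase II. Its start window, chr9:106170001-106175000 with 142 CpG, holds 5 of the 6 annotated transcript starts and read 6.15, 6.48 and 6.02 in WT and 4.33, 3.74 and 4.27 in cKO libraries. All cKO values lay below the WT values, and the difference was -2.11 (SE 0.348, 95% interval -2.88 to -1.33, adjusted p = 0.0313, limma). Reads in this window were 102, 67 and 191 in WT and 64, 36 and 103 in cKO libraries. The call was lost with the intensity trend (adjusted p = 0.0672), in edgeR (log2 fold change -0.81, adjusted p = 0.524), on log2 scales (0.263 and 0.443), after quantile normalization (0.0831) and without any single library other than cKO replicate 1 (0.0599 to 0.123). Enrichment over input was 3.05 and 3.23 in WT replicates 1 and 4 and 2.52 and 1.48 in cKO replicates 1 and 4. Enrichment over input was lower in cKO than in WT replicate 4 at 8 of the 9 gene start windows, and in replicate 1 at 5 of 9. The 4 internal windows of *Wdr82*, among them the one with the microRNA gene *Mirlet7g*, had differences between -0.08 and 0.42 and adjusted p of at least 0.622 (limma).

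**Figure D3:**
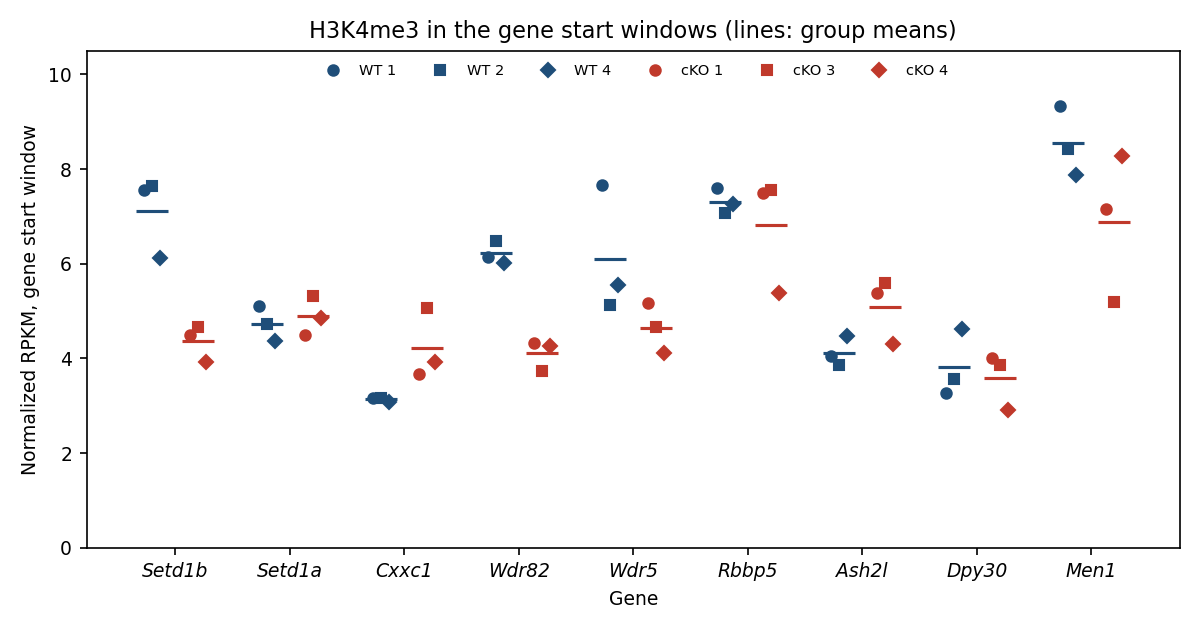
H3K4me3 (normalized RPKM) in the gene start window of each of the 9 genes; each point is a library (WT blue, cKO red), and lines are group means of 3 libraries. WT and cKO points are apart with the cKO lower at *Setd1b* and *Wdr82*, and with the cKO higher at *Cxxc1*.

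In the fit of all libraries without a trend or block, the genes of the shared core showed no called window. Their start windows had WT and cKO values that overlapped. Other settings called a window in *Wdr5*, *Ash2l* and *Dpy30*, as given below. *Wdr5* encodes the propeller protein that holds the core together. Its start window, chr2:27515001-27520000, read 7.66, 5.12 and 5.55 in WT and 5.17, 4.66 and 4.12 in cKO libraries. WT replicate 1 was the highest library and cKO replicate 1 lay just above WT replicate 2. The difference of -1.46 (SE 0.615) did not pass the test (adjusted p = 0.30, limma) and ranged from -1.95 to -0.68 without single libraries. With a replicate block it was -1.96 and was called (adjusted p = 0.00205, limma), though the replicate numbers were not shown to pair the samples. The internal windows of *Wdr5* had differences between -0.36 and 0.63.

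*Rbbp5* encodes the core subunit that contacts the SET domain. Its start window, chr1:132475001-132480000, read 7.61, 7.07 and 7.25 in WT and 7.50, 7.57 and 5.38 in cKO libraries. cKO replicate 4 was the only low library, and the difference was -0.50 (95% interval -1.74 to 0.75, adjusted p = 0.658, limma) with all libraries and 0.22 without cKO replicate 4. The window just downstream, chr1:132480001-132485000, had 3.95, 4.05 and 3.90 in WT and 3.17, 5.19 and 4.17 in cKO libraries. The mark thus reached into the gene in both genotypes, with a wider spread in the cKO, and the other 5 windows lay between 0.041 and 2.02.

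*Ash2l* encodes the subunit that joins DPY30 to the core. It has 11 annotated transcripts on the minus strand. The outermost start lies in chr8:25845001-25850000, a window shared with the start of *Kcnu1*, and 6 transcripts start in the next window, chr8:25840001-25845000. The outer window read 4.05, 3.86 and 4.47 in WT and 5.39, 5.59 and 4.31 in cKO libraries, a difference of 0.97 (adjusted p = 0.309, limma), and the next read 4.63, 4.05 and 5.19 in WT and 3.78, 3.87 and 5.23 in cKO libraries, a difference of -0.33 (adjusted p = 0.742, limma). Further into the gene, chr8:25835001-25840000 had 4.52, 4.15 and 4.02 in WT and 2.95, 2.42 and 0.94 in cKO libraries. Input reads in this window were 31 and 31 in WT replicates 1 and 4 and 31 and 20 in cKO replicates 1 and 4, the last the lowest of any member window. Enrichment over input was 3.63 and 3.24 in these WT and 2.18 and 1.54 in these cKO replicates. The H3K4me3 groups did not overlap there, but the difference of -2.13 (SE 0.501) was not called (adjusted p = 0.0771, limma). It was called in limma with an intensity trend (adjusted p = 0.0319), without cKO replicate 1 (0.0322) and with a replicate block (0.000125), and not by edgeR (0.129).

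*Dpy30* encodes the small dimeric subunit that stimulates the enzymes through ASH2L. Its outermost start lies in chr17:74320001-74325000, with 44 CpG, while 5 of 6 transcripts start in chr17:74315001-74320000, with 130 CpG, the same order as in the CG-poor outer and CG-rich inner promoters printed above. The outer window read 3.27, 3.56 and 4.62 in WT and 4.00, 3.87 and 2.92 in cKO libraries, and the inner window 5.31, 3.86 and 6.71 in WT and 6.33, 4.00 and 4.75 in cKO libraries. Neither differed beyond the spread of the replicates (differences -0.22 and -0.27, adjusted p = 0.827 and 0.875, limma). The following window, chr17:74310001-74315000, had 1.60, 1.13 and 1.74 in WT and 2.45, 3.61 and 3.30 in cKO libraries. It contains no exon of *Dpy30*. The groups did not overlap and the difference of 1.63 (SE 0.40) was not called (adjusted p = 0.0857, limma), although it was with an intensity trend (0.0288) and without cKO replicate 1 (0.0326). In edgeR its log2 fold change was 1.02 (adjusted p = 0.0642). The last window of *Dpy30*, which holds the start of *Memo1*, read between 2.40 and 4.17 with a difference of 0.55.

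*Men1* encodes menin, which brings the MLL1 and MLL2 complexes to chromatin. In WT it had the highest start window of the 9 genes when the outermost start is taken. The outermost annotated start lies at the very end of chr19:6330001-6335000, and 12 of 14 transcripts start in the following window. The first of these read 9.34, 8.43 and 7.88 in WT and 7.16, 5.19 and 8.27 in cKO libraries, so that cKO replicate 4 lay among the WT values. The difference of -1.68 (SE 0.699) did not pass the test (adjusted p = 0.294, limma) and ranged from -2.37 to -0.834 without single libraries. The following window, chr19:6335001-6340000, read 4.26, 4.73 and 3.48 in WT and 4.00, 5.59 and 4.99 in cKO libraries (difference 0.70, adjusted p = 0.491, limma). The last window, with the start of *Map4k2*, read 2.54, 3.08 and 2.76 in WT and 3.23, 4.27 and 3.74 in cKO libraries, without overlap and without passing the test (difference 0.95, adjusted p = 0.272, limma).

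**Figure D4:**
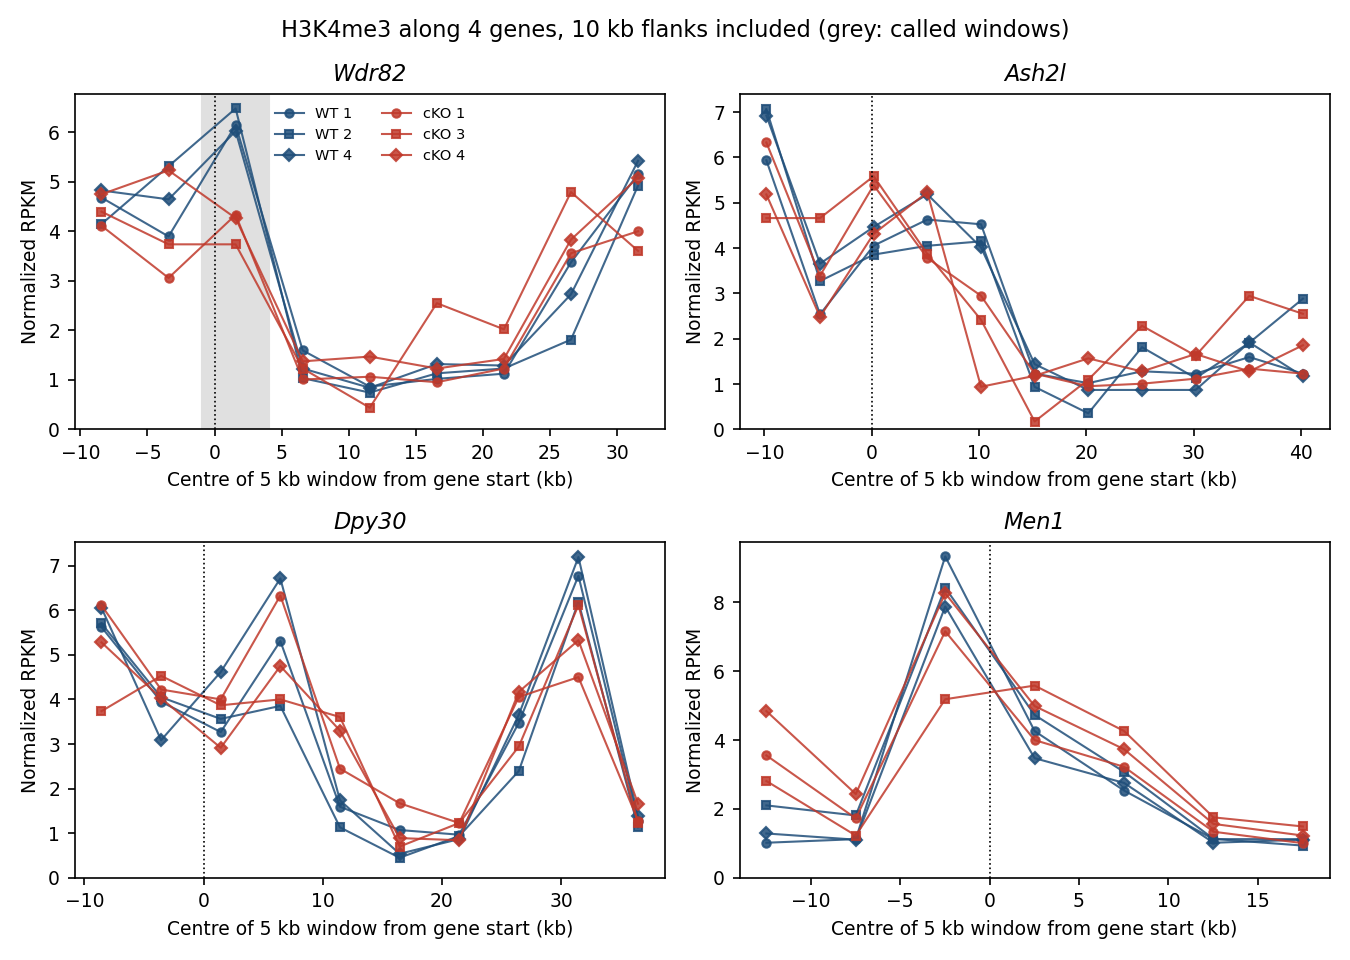
H3K4me3 (normalized RPKM) in each 5 kb window along *Wdr82*, *Ash2l*, *Dpy30* and *Men1* and 10 kb to either side, by the distance of the window centre from the outermost gene start in kb, positive into the gene; each line is a library (WT blue, cKO red) and grey marks called windows. Within *Wdr82* the start window is the highest and all cKO libraries lie below the WT libraries there, at *Ash2l* the groups are apart in the third window of the gene, which was not called, and at *Dpy30* the highest window within the gene is the one after the start window.

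In WT oocytes the order of the start windows was *Men1* (8.55 ± 0.735, SD, n = 3), *Rbbp5* (7.31 ± 0.277), *Setd1b* (7.11 ± 0.861), *Wdr82* (6.22 ± 0.237), *Wdr5* (6.11 ± 1.36), *Setd1a* (4.74 ± 0.362), *Ash2l* (4.13 ± 0.311), *Dpy30* (3.82 ± 0.708) and *Cxxc1* (3.14 ± 0.048). Neighbours in this order differed by more than the SD of their difference within libraries for *Men1* above *Rbbp5*, *Setd1b* above *Wdr82* and *Wdr5* above *Setd1a*, each in 3 of 3 libraries, and by less for the other neighbours. In cKO oocytes the order was *Men1* (6.87 ± 1.56, SD, n = 3), *Rbbp5* (6.81 ± 1.24), *Ash2l* (5.10 ± 0.684), *Setd1a* (4.89 ± 0.412), *Wdr5* (4.65 ± 0.522), *Setd1b* (4.36 ± 0.385), *Cxxc1* (4.22 ± 0.738), *Wdr82* (4.11 ± 0.327) and *Dpy30* (3.60 ± 0.592), and *Rbbp5* above *Ash2l* was the only neighbouring pair that differed by more than that SD. Among the 20269 start windows of protein-coding genes, *Setd1b* stood at percentile 96.4 in WT and 56.4 in cKO, *Wdr82* at 90.1 and 51.4, and *Cxxc1* at 39.5 and 53.4. The start windows of *Men1* and *Rbbp5* stayed near the top in both genotypes, at 99.6 and 97.2 in WT and 96.4 and 96.0 in cKO. They also hold the starts of *AC127556.2* and *6030442K20Rik*, respectively. The *Men1* window holds 2 of the 14 transcript starts of the gene. The window with 12 of them had means of 4.16 in WT and 4.86 in cKO.

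The internal windows were low in both genotypes, with a median WT mean of 1.24 and a median cKO mean of 1.60, against medians over all windows of 1.46 and 1.54. Of the 38 internal windows, 26 had a higher mean in the cKO (68.4%, against 43.7% of all windows), and their median difference was 0.24 (median over all windows -0.10). A mean under 2 was found in 26 of the 38 windows over the 6 libraries. A window without reads already had 0.810 in WT replicate 1 and 0.785 in cKO replicate 1, and -1.02 in cKO replicate 3. Whether the share of internal windows with a higher cKO mean differs from that of all windows was not tested. The median difference of the 9 start windows was -0.50, where that of all protein-coding start windows was 0.09, and 6 of the 9 had a lower mean in the cKO (45.8% of all protein-coding start windows).

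Averaged over all windows of a gene, *Wdr82* stood at 2.14 ± 0.013 in WT and 1.89 ± 0.15 in cKO (SD, n = 3) without overlap, with p = 0.10 in a two-sided exact permutation test, the smallest p that 3 against 3 libraries allow. Without its start window the difference was 0.21, so the lower mean rests on that window. On log2(value + 1) the difference was -0.0088 (exact permutation p = 1.0), and in reads per 1000000 the exact permutation p was 0.30. For *Setd1b* the means were 2.89 ± 0.55 and 1.98 ± 0.547 (SD, n = 3, exact permutation p = 0.20), the start window not being among its members. The other 7 genes had differences between -0.11 (*Ash2l*) and 0.38 (*Cxxc1* and *Dpy30*), with exact permutation p of at least 0.30. In reads per 1000000 the *Men1* difference was -0.76 and *Ash2l* reached an exact permutation p of 0.10. With n = 3 per group no gene could have reached a p of 0.05.

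Genes of the other H3K4 methyltransferases and of proteins that work with them were read for comparison, 18 genes with 322 windows, of which 6 were called higher and 3 lower by limma (0.563% and 0.454% of all windows). All 6 gains lay in *Kmt2a*, which encodes MLL1 and is listed in the table under its older symbol *Mll1*. In *Kmt2a*, 16 of 16 windows had a higher cKO mean and in 15 the groups did not overlap (9.88% of all windows with the cKO higher). Averaged over these windows, the WT libraries stood at 3.16 ± 0.306 and the cKO libraries at 5.15 ± 0.138 (SD, n = 3, difference 1.99, exact permutation p = 0.10, the smallest possible). The called windows had differences from 2.25 to 3.18 with adjusted p from 0.0295 to 0.0423 (limma), and the start window read 4.84, 4.24 and 4.83 in WT and 7.22, 5.85 and 7.45 in cKO libraries (adjusted p = 0.0565). edgeR called 0 of the 16, and the limma calls were lost on log2 scales, after quantile normalization, without any single WT library and without cKO replicate 4. None of the 9 member genes showed a gain of this extent along its windows, although this difference between genes was not tested.

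The gene of MLL2, the enzyme of the broad oocyte domains, is *Kmt2b*, listed in the table as *Wbp7*, while the symbol *Mll2* in the table stands for *Kmt2d*. The start window of *Kmt2b* read 4.58, 4.93 and 4.71 in WT and 5.11, 4.13 and 5.38 in cKO libraries, a difference of 0.14 (adjusted p = 0.881, limma), and none of its 4 windows was called. *Kmt2d* had a difference of 0.61 (adjusted p = 0.612) and *Kmt2c* of -1.27 (adjusted p = 0.467) at the start, again without a called window. The 3 losses lay in *Smyd3*, a SET and MYND domain protein, in windows away from its start, with differences of -1.81, -2.21 and -2.66 (adjusted p from 0.0343 to 0.0499, limma), out of 114 windows, and were lost in those same settings, while edgeR called 6 windows of the gene. Over the 18 genes, 10 start windows had a higher and 8 a lower mean in the cKO, with a median difference of 0.07, and no start window was called.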

How the data were processed

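H3K4me3 and input libraries from GV oocytes (10 in all) were analysed as deposited. Per the labels and the study's methods, the authors trimmed reads (Trim Galore 0.4.2), mapped them with Bowtie2 2.2.9 to GRCm38, removed low mapping qualities, left out poorly enriched libraries and windows with high input, and counted reads over 5 kb windows with SeqMonk. Values deposited for H3K4me3 are an enrichment-normalized RPKM (a score on a linear scale, as it can fall below 0). The deposited input values are coverage signal per window. In each column the values were whole multiples of a constant step per read (100% within 0.05 reads), from which reads were recovered.

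The 9 genes and all lists were chosen with earlier results of these data known. Named genes were the 9 genes, the list of other methyltransferases and their partners, and the 5 genes nearest to the *Setd1b* start window. Marker genes (*Foxl2*, *Gdf9*, *Nlrp5*, *Bmp15* and *Zp2*) and neighbours of the 9 genes (among them *Hpd*, *Cdc42bpg*, *Brd3* and *Gm13421*) were chosen after their values were seen. Gene starts and exons came from GENCODE M21 and promoters from RefSeq (*Setd1b*, *Ash2l* and *Cxxc1* had no entry). One neighbouring result is not reported here. limma 3.58.1 (R 4.3.3) was fitted on the deposited values of all windows without a block, and tested on simulated data. Alternatives used log2 scales, an intensity trend, quantile normalization, a filter, single libraries left out and edgeR 4.0.16 on recovered reads.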

Additional observations from a re-analysis of the deposited data

How the results depend on the processing

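Counts of called member windows, 2 in all and 2 lower, were 0 and 0 on both log2 scales and with quantile normalization (0, 0 and 1 of all windows called), 1 and 1 in the 3 edgeR fits, and 4 and 4 with a replicate block; leaving out single libraries gave 0 to 4 in all, 0 to 1 higher and 0 to 3 lower, and where it gave 0 at most 1 window of the whole table was called. The intensity trend and leaving out cKO replicate 1 each added 1 higher window. The first internal window of *Setd1b* was -1.29 on log2(value + 1), -1.54 on log2(value + 0.1), -5.39 after quantile normalization, -6.14 to -4.98 without single libraries, and -4.12 in replicate 4 alone. The *Setd1b* start window was -0.59 and -0.69 on the log2 scales, -2.66 after quantile normalization, -3.24 to -2.47 without single libraries, and -0.97, -0.998 and -0.999 in edgeR (TMM with at least 10 reads, RLE, and TMM with at least 1 read). The *Wdr82* start window was -0.50 and -0.59, -2.11 with the intensity trend (adjusted p = 0.0672) and after quantile normalization, -2.22 to -1.92 without single libraries, -0.81, -0.84 and -0.84 in edgeR, and -1.81 and -1.76 in replicates 1 and 4 alone. The cause of these changes was not tested.

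Directions turned for uncalled values. The *Setd1a* start was -0.0652 with the block, -0.22, -0.26 and -0.26 in edgeR and -0.0628 to 0.35 without single libraries. Without single libraries the *Rbbp5* start ranged from -0.875 to 0.22 and the *Dpy30* start from -0.49 to 0.18. With the start taken as the window of most transcripts, *Ash2l* was -0.33 and *Men1* 0.70 (an alternative chosen after seeing the data, as were the replicates alone). Gene means without the start window were -0.31 for *Cxxc1*, 0.21 for *Wdr82*, 0.29 for *Wdr5* and 0.83 for *Men1*, and on log2(value + 1) 0.0798 for *Wdr5* and 0.0689 for *Men1*. Without single libraries they ranged from -0.12 to 0.25 for *Setd1a*, -0.16 to 0.0815 for *Wdr5*, -0.21 to 0.0762 for *Rbbp5* and -0.26 to 0.17 for *Men1*. Gene means of the others kept their direction without single libraries but moved in size. They ranged from -1.22 to -0.60 for *Setd1b*, 0.18 to 0.63 for *Cxxc1*, -0.30 to -0.16 for *Wdr82*, -0.18 to -0.065 for *Ash2l* and 0.12 to 0.61 for *Dpy30*.

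Genotypes share replicate numbers 1 and 4. Deviations from the group means correlated at 0.18 between replicates 1 and at -0.002 between replicates 4, so the numbers were not shown to pair the samples. The replicate block raised the called member windows from 2 to 4, adding the *Wdr5* start window and a window of *Ash2l*.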

Other observations

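The surroundings of the 9 genes held 36 further windows within 10 kb, of which 1 was called (the window upstream of *Setd1b*, lower in the cKO, where 1.02% of all windows were called). In 12 the groups did not overlap, where 9.95% of all windows had the cKO lower and 9.88% the cKO higher without overlap. Beside *Men1*, a window in *Cdc42bpg*, a kinase gene, had means of 1.47 in WT and 3.74 in cKO (difference 2.27, adjusted p = 0.0753, limma). Upstream of *Wdr5*, the window with the start of *Brd3*, a bromodomain protein of acetylated chromatin, had means of 1.70 and 2.93 (difference 1.23, adjusted p = 0.121), and downstream the window with the start of *Gm13421* had means of 4.04 and 2.46 (difference -1.57, adjusted p = 0.103). These windows did not pass the test and are given as values.

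Among the marker genes, the start window of *Foxl2*, a transcription factor of granulosa cells, was called higher in the cKO, from 4.52, 3.86 and 4.26 in WT to 6.39, 8.36 and 6.44 in cKO libraries (adjusted p = 0.0415, limma). The start window of *Gdf9* (listed under *Uqcrq*), whose promoter also drives the Cre transgene, had 7.30, 7.94 and 7.13 in WT and 9.99, 12.6 and 9.52 in cKO libraries (adjusted p = 0.060). It went against its list, in which 9 of 12 start windows had a lower cKO mean, among them *Nlrp5* (-1.92, adjusted p = 0.0522), *Bmp15* (-2.48, 0.071) and *Zp2* (-2.65, 0.083), which did not pass the test either (limma).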
